A study of Mus musculus with 8 samples.

Results

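The comparison described here is the departure from additivity when mouse bone marrow macrophages received interferon gamma (IFNγ) together with antibody-coated red cells. For each gene it is the log2 change made by the coated cells in the presence of IFNγ minus the log2 change they made without it, called the interaction below. All 4 groups enter it, so it rests on all 8 of the 8 arrays in the series, and it was computed for 8855 features, of which 8183 carry a gene symbol. An interaction of 0 means that the log2 changes of the single stimuli add up, a positive one that the level with both lies above that sum, and a negative one that it lies below. The groups, with 2 arrays each, were IFNg+SRBC-IgG2a ops (both stimuli), IFNg alone, SRBC-IgG2a ops alone (sheep red blood cells coated with mouse IgG2a, called opsonised cells) and Non stim (unstimulated). IFNγ was given at 10 ng/ml and the red cells at 10 for each macrophage. All were C57BL/6 marrow cells grown in 30% L929-conditioned medium, a source of M-CSF, and replated on day 7 in 15% of it. The stimulated groups received their stimuli on day 8 for 6 h. The title of the series names coincidence detection by the IFNγ receptor and FcγRI. Uncoated red cells and free antibody were not analysed here, so antibody, particle and red cell contents cannot be told apart. Nothing in the labels says that the arrays of a group came from separate cultures or mice, so the p-values cover only how far these samples spread, and that spread may be technical.

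IFNγ signals through Jak kinases and drives IRF1, guanylate-binding proteins, antigen presentation genes and chemokines. Mouse IgG2a on a particle clusters Fcγ receptors, whose ITAM motifs recruit Syk and lead to uptake, calcium and ERK signals and NF-κB. Digested red cells release heme and iron, which in macrophages relieve Bach1 repression and bring in NRF2 targets such as Hmox1 and Slc40a1. Macrophages grown in M-CSF divide, and macrophage activation is known to lower genes of the cell cycle. A positive interaction arises in 3 distinguishable ways, which call for different words: a rise larger than the sum of the rises, a fall smaller than the sum of the falls, or a summed fall that is not seen at all.

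The correlation over all probes was 0.9918 to 0.9936 between the arrays of a group and 0.9519 to 0.9841 between groups. Of the macrophage markers on the array 6 of 6 lay above the background floor, an intensity of 204.9, against 0 of 7 for T and NK cells, 0 of 3 for erythroid cells and 0 of 5 for dendritic cells. Of the B cell markers 2 of 4 were above it in at least 1 group (Cd79b and Ms4a1), of the mast cell and basophil markers 1 of 4 (Cpa3) and of the fibroblast markers 1 of 5 (Col1a2). The summed B cell markers were 828.1 with both stimuli, 916.3 with IFNγ, 842.5 with opsonised cells and 876.6 in unstimulated cells, and their part in the results was not tested. Of 7 neutrophil markers 5 were above it. Their summed intensity was 4257 with both stimuli, 3681 with IFNγ, 3159 with opsonised cells and 3516 in unstimulated cells, mostly S100a8, and its part in the results was not tested. In bulk samples like these, fewer cells with a transcript and less of it per cell cannot be told apart. Background was not subtracted from the deposited intensities, so log2 changes of dim genes are understated, and "at least" marks a fold against a group that was not above the floor.

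Departures from additivity were the exception. limma called 230 of 8855 features (2.6%) at an adjusted p under 0.05, 106 above additivity (1.2%) and 124 below (1.4%), while 1333 had an unadjusted p under 0.05. The median interaction over all features was -0.000737 and the 5th and 95th percentiles were -0.406 and 0.388 on the log2 scale. Of the calls, 19 lay at least 2-fold above additivity (0.215% of features) and 18 at least 2-fold below (0.203%). The interaction had a median standard error of 0.163, against 0.115 for the change with IFNγ, since it carries the spread of all 4 groups. In each of the 230 called features all 16 ways of taking 1 array per group gave an interaction of the same sign. Since the calls were chosen on these same arrays, that adds no support to the 230. The count was 104 without IFNγ replicate 1, 125 without IFNγ replicate 2, 137 without unstimulated replicate 1, 102 without unstimulated replicate 2, and 136 after the mode of the background was subtracted.

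The called features were sorted by the sum of their single changes and by the change with both stimuli. Above additivity stood 49 larger rises (46.2% of the 106), 32 falls not seen (30.2%) and 25 smaller falls (23.6%). Below it stood 68 smaller rises (54.8% of the 124), 30 deeper falls (24.2%) and 26 rises not seen (21%). Only part of either direction therefore describes a level beyond each single stimulus in the direction of the interaction. Among the 106 above additivity, limma placed both stimuli above each single stimulus in 66 (0.745% of all features), namely 45 larger rises and 21 falls not seen. Among the 124 below, it placed them below each in 39 (0.44%), namely 27 deeper falls and 12 rises not seen. None of the 25 smaller falls lay above both single stimuli, and none of the 68 smaller rises lay below both. In the other direction, 3 smaller rises were called above the higher single stimulus and 1 smaller fall below the lower. The same arrays enter the sum and the interaction with opposite signs, so the classes are a description with no test. On the linear intensity scale the excess had the same sign in 104 of the 106 features above and 118 of the 124 below. The exceptions were Hmox1 and Arhgef3 above, and Gbp2, Gbp3, Cxcl10, Sod2, Mlkl and Cerk below. Without unstimulated replicate 2 the 66 became 34 and the 39 became 13, and without IFNγ replicate 1 they became 33 and 16. The 39 also became 13 without IFNγ replicate 2 and 25 without unstimulated replicate 1, the 66 became 27 after mode subtraction, and the 39 became 63 after centring on housekeeping genes.

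**Figure D1:**
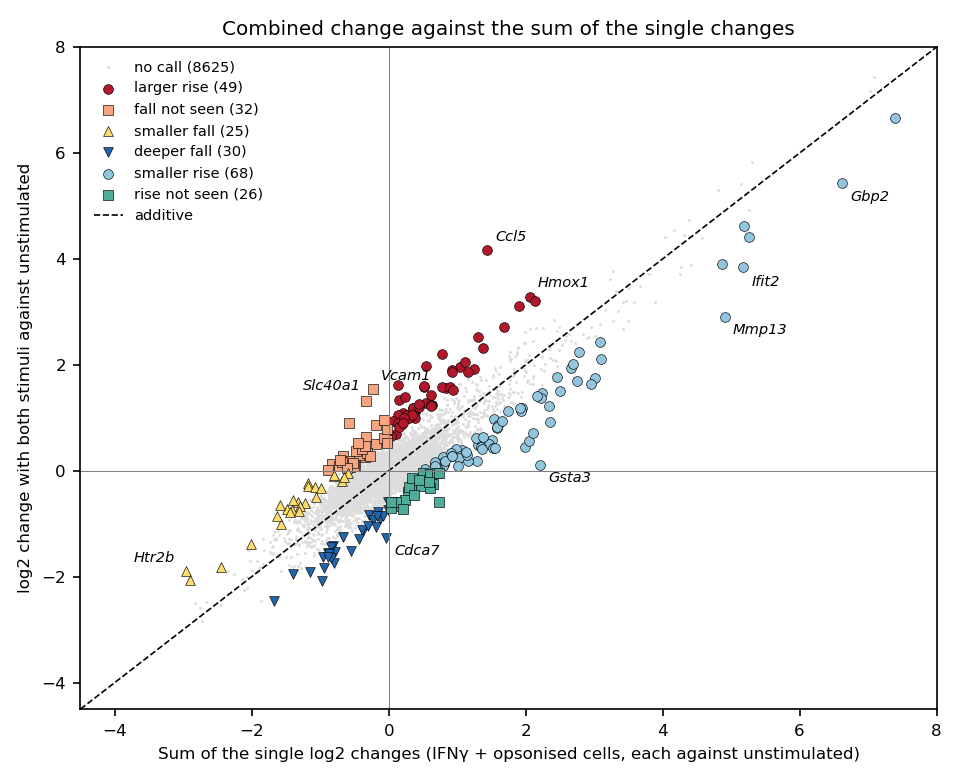
Each point is a feature, with the sum of the log2 changes under IFNγ and under opsonised cells on the x axis and the log2 change with both stimuli on the y axis, all against unstimulated cells. Coloured shapes are the 230 called features by class, grey points the rest, and the dashed line is additivity: red circles, orange squares and yellow triangles lie above it (49, 32 and 25), and dark blue triangles, light blue circles and green squares below (30, 68 and 26).

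The largest departure of all was that of Ccl5, a chemokine that draws T cells, NK cells and monocytes. Its intensity was 4785 and 5321 with both stimuli, 670 and 709 with IFNγ, 267 and 353 with opsonised cells, and 299 and 262 in unstimulated cells. The arrays with both stimuli stood far above all others, and those with opsonised cells overlapped the unstimulated ones. The single log2 changes predicted 755.4 with both stimuli, and the interaction was 2.74 ± 0.19 (SE; limma adjusted p = 5e-09). Ccl5 with both was 7.32-fold above IFNγ alone and 16.4-fold above opsonised cells alone. Vcam1, an adhesion molecule for integrin-bearing leukocytes, had 586 and 651 with both stimuli, 184 and 216 with IFNγ, 178 and 203 with opsonised cells, and 201 and 221 in unstimulated cells. Here only the combination stood clear of the background floor, and neither single change passed the test. Its interaction was 1.78 ± 0.17 (limma adjusted p = 5.5e-07), and by the sign of its small negative sum it counts among the falls not seen, although no fall was measured. Its level with both was at least 3.01-fold that with opsonised cells, and its additive expectation of 179.8 lay below the background floor.

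Next came genes whose single changes were small or bright only under IFNγ. Ubd, a ubiquitin-like modifier gene induced by inflammatory cytokines, had 565 and 681 with both stimuli, 219 and 211 with IFNγ, 214 and 199 with opsonised cells, and 202 and 200 in unstimulated cells. Nos2, which makes nitric oxide, had 631 and 738 with both, 230 and 250 with IFNγ, 183 and 186 with opsonised cells, and 192 and 158 in unstimulated cells. In both genes the 2 arrays of the combination were the only ones clearly off the floor. The interactions were 1.49 ± 0.16 for Ubd and 1.43 ± 0.17 for Nos2 (limma adjusted p = 4.9e-06 and 1.3e-05), and Nos2 with both was at least 3.33-fold the unstimulated level. Oasl1, an antiviral gene that restrains IRF7 translation in mice, had 825 and 825 with both, 269 and 238 with IFNγ, 196 and 241 with opsonised cells, and 163 and 197 in unstimulated cells (interaction 1.43 ± 0.18). Cst7, the protease inhibitor cystatin F, had 1629 and 1422 with both, 640 and 531 with IFNγ, 320 and 278 with opsonised cells, and 274 and 257 in unstimulated cells (1.22 ± 0.18). No array of another group reached those with both stimuli in either gene. After mode subtraction the calls of Oasl1, Cst7 and Traf1, a TNF receptor adaptor gene at 1.09 ± 0.17, were lost (limma adjusted p = 0.152, 0.0722 and 0.221).

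**Figure D2:**
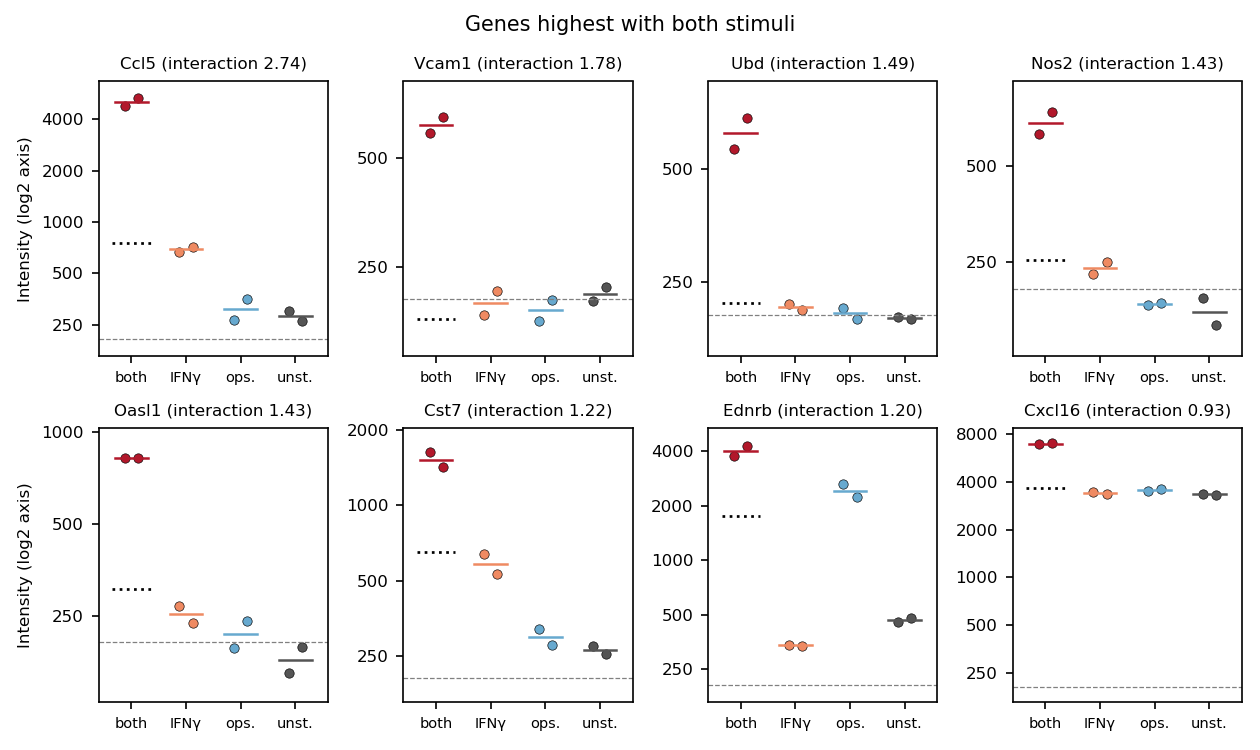
Intensity on a log2 axis in each of the 2 arrays (points) and the group mean (bar) with both stimuli, IFNγ, opsonised cells (ops.) and unstimulated (unst.), with the additive expectation as a dotted bar and the background floor as a dashed line. In all 8 genes, from Ccl5 (interaction 2.74) to Cxcl16 (0.93), the arrays with both stimuli lie above the dotted bar and above every other array.

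Ubd is shown with its promoter because its rise came only with both stimuli and a κB-type motif stands just before its start. The sequence is RefSeq's, build GRCm38.p6, chr17:37193642-37193941, plus strand, from 250 bases before to 50 after the start, with the match to the NF-kappaB consensus in capitals, at position -15 from the start.
Ubd: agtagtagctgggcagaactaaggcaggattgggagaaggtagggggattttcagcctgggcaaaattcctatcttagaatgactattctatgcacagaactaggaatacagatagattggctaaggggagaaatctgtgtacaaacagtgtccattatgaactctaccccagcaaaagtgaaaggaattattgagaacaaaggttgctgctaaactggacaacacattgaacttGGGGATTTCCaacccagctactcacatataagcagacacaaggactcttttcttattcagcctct
That consensus, searched on both strands, was held by 5 of 29 larger-rise promoters in the table (17.2%: Ednrb, Oasl1, Sdc4, Sphk1 and Ubd) and by 815 of the 6716 promoters of tested genes (12.1%). The smaller rises, which lie below additivity, held it about as often (10 of 56, 17.9%), so its share does not set the larger rises apart. In the other classes it lay between 4.35% and 12%. The consensus was added after the class was known. A stricter κB-type motif, fixed in the design, was in 0 of 29 larger-rise promoters and in 36 of the 6716 (0.536%). It was in 0 promoters of every other class. A looser form from the design was in 10 of the 29 (34.5%) and in 29.2% of the 6716. A match is a description of letters and not a binding site.

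Of the 49 larger rises 33 had all 4 groups above the floor on at least 1 array each. Among the 49 limma called 28 higher with IFNγ alone (10% of all features were) and 6 higher with opsonised cells alone (6.36%). The class takes only features whose summed change is not a fall, which favours such calls. The commonest pattern, in 24, was a rise with IFNγ, no call with opsonised cells and a rise with both, each against unstimulated cells. All of these but Rgs1 were also called above IFNγ alone. Cd74, the MHC class II invariant chain, was 1 of these: 2810 and 2453 with both, 1579 and 1552 with IFNγ, 309 and 352 with opsonised cells, and 386 and 417 in unstimulated cells (interaction 1.03 ± 0.17, limma adjusted p = 0.00068). Its 2 arrays with both stimuli exceeded both IFNγ arrays, and a second probe gave 0.77 ± 0.18. Of 9 tested MHC class II presentation genes Cd74 was the only call, with 0 below, and 8 of the 9 had a positive interaction (median 0.31). Over all features 1.2% were called above, and 4418 of 8855 had a positive interaction. Il15 and Il27, cytokines that act on T and NK cells, were at 0.74 ± 0.16 and 0.93 ± 0.19. Il15 lost its call without replicate 1 of both stimuli, IFNγ replicate 1 or unstimulated replicate 2, and Il27 without IFNγ replicate 1 or unstimulated replicate 1 and after mode subtraction. Another 17 larger rises had no call with either stimulus alone, among them Cxcl16, a chemokine and lipid-scavenging receptor. It had 6897 and 6950 with both stimuli, 3446 and 3345 with IFNγ, 3503 and 3618 with opsonised cells, and 3366 and 3285 in unstimulated cells (0.93 ± 0.14, limma adjusted p = 0.00023). The 3 other groups lay within a narrow band and the combination at 2.08-fold the unstimulated level. The gap junction gene Gja4 (1.17 ± 0.16), the Ras activator gene Rasgrp1 (1.07 ± 0.14) and the coagulation factor gene F10 (1.19 ± 0.19) were further rises above both single stimuli. The count of 49 fell to 25 without IFNγ replicate 1, 30 without unstimulated replicate 1, 27 without unstimulated replicate 2 and 20 after mode subtraction.

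Ednrb, the endothelin B receptor, rose with opsonised cells and behaved the other way round with respect to IFNγ. It had 3782 and 4299 with both stimuli, 342 and 337 with IFNγ, 2627 and 2229 with opsonised cells, and 456 and 480 in unstimulated cells. All 4 groups were separate, with IFNγ alone lowest and the combination highest. IFNγ changed it by 0.74 on the log2 scale in the presence of opsonised cells and by -0.46 in their absence (interaction 1.20 ± 0.17, limma adjusted p = 0.00013), and 2 further probes gave 1.01 and 0.62. Hmox1, the heme-degrading oxygenase, shows a larger rise that is not a higher level. It had 23327 and 22924 with both, 919 and 969 with IFNγ, 26039 and 24684 with opsonised cells, and 2342 and 2451 in unstimulated cells. The combination lay slightly under opsonised cells alone (log2 difference -0.13, limma adjusted p = 0.33), and the interaction of 1.21 ± 0.14 arose because IFNγ alone lowered the gene 2.54-fold and did not lower it in the presence of opsonised cells. Its linear excess was negative and both upper groups were over 50% of the highest intensity, 35990. Cd83, Arhgef3 and Rgs1 were the other larger rises not above both single stimuli. Each of these 3 lost its call without replicate 1 of both stimuli and without either IFNγ array. Cd83 and Arhgef3 also lost it without unstimulated replicate 2, Arhgef3 and Rgs1 without unstimulated replicate 1, and Rgs1 without replicate 2 of both stimuli or either opsonised-cell array.

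Smaller falls made up the 25 features above additivity in which both the summed and the combined change were falls, and none is a gain over unstimulated cells. limma called 22 of them lower with IFNγ alone (13.1% of all features), 19 lower with opsonised cells alone (6.52%) and 18 lower with both (21.8%). The definition of the class largely fixes these shares. In 16 each stimulus alone lowered the gene, 5 were lowered by IFNγ only, 3 by opsonised cells only, and Ccl3 fell with IFNγ and rose with opsonised cells. IFNγ gave the lower of the single levels in 15 and opsonised cells in 10. The combination was not called different from the deeper single stimulus in 14, was above it in 10 and below it in 1. In the 14 the second stimulus thus had no called effect on top of the first. Htr2b, a serotonin receptor, had 302 and 315 with both, 284 and 267 with IFNγ, 572 and 648 with opsonised cells, and 1142 and 1142 in unstimulated cells. Adding opsonised cells to IFNγ left it at the IFNγ level (log2 difference 0.16, limma adjusted p = 0.41), where opsonised cells alone had lowered it 1.88-fold, so the interaction was 1.07 ± 0.17 (limma adjusted p = 0.0004). The additive expectation of 146.9 lay below the background floor, where no array can register a further fall. The same held for 5 of the 25 smaller falls: Cby2, Frmd6, Htr2b, Rspo3 and Slco2b1. It also held for 5 of the 32 falls not seen (B3gnt5, Kcnj14, Tcp10a, Vcam1 and Wdr20rt) and for 1 larger rise, Cfb. Slco2b1, an organic anion transporter, was the 1 feature with both stimuli below either alone, at 203 and 161 against 254 and 299 with IFNγ, 304 and 255 with opsonised cells, and 718 and 795 in unstimulated cells. It was at least 3.69-fold lower than unstimulated, and its call was lost after mode subtraction (limma adjusted p = 0.842), after normexp correction, and without replicate 1 of both stimuli, IFNγ replicate 1, opsonised-cell replicate 2 or unstimulated replicate 2.

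Other smaller falls were well inside the measurable range. Snx8, a sorting nexin of endosomes, had 3333 and 3054 with both stimuli, 3136 and 3401 with IFNγ, 2614 and 2475 with opsonised cells, and 5754 and 4334 in unstimulated cells. Every stimulated array lay below both unstimulated ones, and the combination was level with IFNγ alone and 1.25-fold above opsonised cells alone, against an expectation of 1664 (0.94 ± 0.17, limma adjusted p = 0.0019). Clec4d, a C-type lectin receptor, had 8850 and 9081 with both, 4079 and 4893 with IFNγ, 12622 and 10954 with opsonised cells, and 9428 and 9703 in unstimulated cells. IFNγ alone lowered it 2.14-fold, and with opsonised cells present the level was not called different from unstimulated (log2 change -0.09, limma adjusted p = 0.52). Ccl3, a chemokine for monocytes and T cells, had 1835 and 1794 with both, 718 and 660 with IFNγ, 3204 and 2648 with opsonised cells, and 2161 and 2097 in unstimulated cells (0.95 ± 0.16, limma adjusted p = 0.0011). Its level with both stood 2.64-fold above IFNγ alone, yet below opsonised cells and below unstimulated cells. Nedd4l, a ubiquitin ligase gene, had 910 and 753 with both, 571 and 559 with IFNγ, 1035 and 933 with opsonised cells, and 1151 and 1272 in unstimulated cells. It was above IFNγ alone and still below unstimulated cells with both (log2 change -0.55). The calls of Clec4d and Nedd4l were lost without unstimulated replicate 2 and that of Clec4d also without IFNγ replicate 1. The count of 25 was 16 and 15 without replicates 1 and 2 of both stimuli, 8 and 13 without those of IFNγ, 15 without opsonised-cell replicate 2, 10 and 7 without unstimulated replicates 1 and 2, 15 with housekeeping centring, 15 with no filter on dim probes and 9 after mode subtraction.

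**Figure D3:**
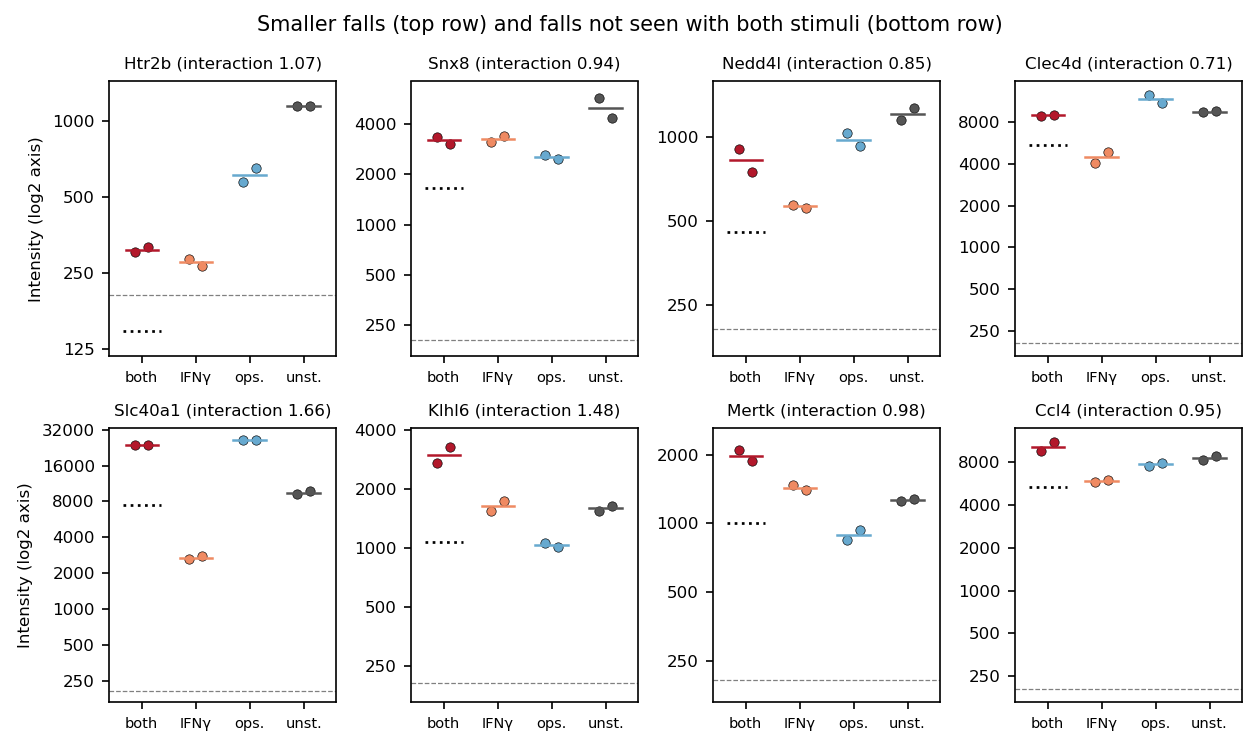
Intensity on a log2 axis per array (points) and group mean (bar) for 4 smaller falls (top row) and 4 falls not seen (bottom row), with the groups from both stimuli on the left to unstimulated on the right. The dotted bar is the additive expectation and the dashed line the background floor. Htr2b, Snx8, Nedd4l and Clec4d with both stimuli lie below their unstimulated arrays although above the dotted bar, whereas Klhl6, Mertk and Ccl4 lie above theirs.

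In the 32 falls not seen, the combination was called above the lower single stimulus in every one, which the definition of the class largely fixes. It was called above IFNγ alone in 26 (6.91% of all features were) and above opsonised cells alone in 27 (12%). With both stimuli 20 were called higher than in unstimulated cells (15.4% of all features were). At least 1 single stimulus lowered 18 of the 32: 7 fell with IFNγ only, 8 with opsonised cells only, 1 with both, 1 fell with IFNγ and rose with opsonised cells, and 1 the reverse, while 14 had no call alone. Slc40a1, the iron exporter ferroportin, had 23590 and 23754 with both, 2601 and 2757 with IFNγ, 26321 and 26467 with opsonised cells, and 9215 and 9689 in unstimulated cells. IFNγ lowered it 3.53-fold alone, and with opsonised cells present the combination was not called different from opsonised cells alone (log2 difference -0.16, limma adjusted p = 0.2). Its interaction of 1.66 ± 0.13 (limma adjusted p = 2.5e-08) resembles that of Hmox1 in form, since the loss with IFNγ was not measured when opsonised cells were there, and its upper groups were also over 50% of the highest intensity. Both genes belong to heme and iron handling. There 3 of 19 tested genes lay above additivity, Lcn2 included (1.2% of all features), and Spic below (1.4%), with a median of 0.02. Lcn2 kept its call in few settings: it was lost in 14, and that of Spic in 7, after mode subtraction and normexp correction in each case.

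Klhl6, a ubiquitin ligase adaptor, had 2726 and 3288 with both stimuli, 1555 and 1752 with IFNγ, 1072 and 1014 with opsonised cells, and 1550 and 1654 in unstimulated cells. Opsonised cells raised it by 0.86 on the log2 scale in the presence of IFNγ and lowered it by 0.62 without (interaction 1.48 ± 0.16, limma adjusted p = 7.1e-06), and a second probe gave 1.41. Mertk, a receptor for dying cells, had 2092 and 1870 with both, 1476 and 1392 with IFNγ, 842 and 936 with opsonised cells, and 1252 and 1279 in unstimulated cells. It was likewise highest with both and lowest with opsonised cells alone, with no overlap between these groups (0.98 ± 0.16, limma adjusted p = 0.00067). Stat4, a transcription factor gene, had 368 and 409 with both, 287 and 271 with IFNγ, 258 and 316 with opsonised cells, and 377 and 391 in unstimulated cells. Each stimulus alone lowered it and the combination overlapped the unstimulated arrays (0.90 ± 0.17, limma adjusted p = 0.0034). A dimmer Stat4 probe gave 0.41 without a call. Ccl4, a chemokine akin to Ccl3, had 9495 and 11076 with both, 5790 and 5975 with IFNγ, 7502 and 7893 with opsonised cells, and 8203 and 8804 in unstimulated cells. Unlike Ccl3 it ended above unstimulated cells (log2 change 0.27, limma adjusted p = 0.035), with an interaction of 0.95 ± 0.14 and 1.02 in a second probe. The count of 32 was 14 without IFNγ replicate 1, 21 without opsonised-cell replicate 2, 21 without unstimulated replicate 1, 13 without unstimulated replicate 2, and 20 after mode subtraction.

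The called chemokine genes outside the CXCR3-ligand group were all above additivity but differed in class. Of 13 tested, 6 had a positive and 7 a negative interaction, with a median of -0.0079 against -0.000737 for all features. Called above additivity were 4 (1.2% of all features) and below it 0 (1.4%). Ccl5 and Cxcl16 were larger rises, Ccl4 was a fall not seen and Ccl3 a smaller fall. Of 2 tested CXCR3 ligands, Cxcl10 was called below (-0.73 ± 0.16, limma adjusted p = 0.013), although its intensity with both (21029 and 21510) was the highest, against 16722 and 16102 with IFNγ, 409 and 499 with opsonised cells, and 195 and 226 in unstimulated cells. Its linear excess was positive, its additive expectation lay over 50% of the highest intensity, and its call was lost without either IFNγ array, opsonised-cell replicate 2 or unstimulated replicate 1. Cxcl9, at 30374 and 29424 with both and 19795 and 20728 with IFNγ, had an interaction of 0.35 ± 0.15 without a call (limma adjusted p = 0.26), which was -0.16 after mode subtraction.

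Deeper falls numbered 30. limma called all 30 lower with both stimuli than in unstimulated cells (21.8% of all features were), which the definition of the class fixed in advance. The class takes only summed falls, which favours single-stimulus calls as well. Of the 30, 16 were called lower with IFNγ alone (13.1% of all features) and 14 with opsonised cells alone (6.52%), 9 of them with each, and 9 with neither. Cdca7, which helps a chromatin remodeller maintain DNA methylation, was of the last kind. It had 349 and 270 with both, 750 and 743 with IFNγ, 702 and 731 with opsonised cells, and 753 and 729 in unstimulated cells. Only the combination stood apart, 2.41-fold below unstimulated cells (interaction -1.23 ± 0.18, limma adjusted p = 0.00019). Sla, an adaptor that restrains antigen and growth factor receptor signalling, had 304 and 269 with both, 559 and 558 with IFNγ, 1314 and 1347 with opsonised cells, and 1248 and 1166 in unstimulated cells. Opsonised cells lowered it only where IFNγ had been added, to 1.95-fold below IFNγ alone (-1.11 ± 0.16, limma adjusted p = 0.00023). Further Sla probes, near the background floor, gave -0.18 and -0.07 without a call. Tlr13, the mouse sensor of bacterial ribosomal RNA, followed with -0.96 ± 0.18, and the costimulatory receptor gene Cd28 with -0.77 ± 0.18. A further Tlr13 probe gave -0.48 and further Cd28 probes gave -0.30 and -0.16, none of them called. Cd28 lost its call in 5 of the 8 fits with 1 array left out, those without replicate 1 of both stimuli, either IFNγ array, opsonised-cell replicate 2 or unstimulated replicate 2.

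Genes of chromosome duplication and division were among the deeper falls. Of 22 tested mitosis and cytokinesis genes 0 were above and 5 below additivity (Anln, Prc1, Plk1, Cdc20 and Kif23), 17 of 22 had a negative interaction and the median was -0.41. Of 33 DNA replication and S-phase genes 0 were above and 3 below (Uhrf1, Dnmt1 and Ung), 30 were negative and the median was -0.24. A further, dim probe of Ung gave 0.06 without a call. Of 25 replication-dependent histones 0 were above and 4 below, with a median of -0.12. Over all features 1.2% were called above and 1.4% below, and 4437 of 8855 had a negative interaction. The list medians stayed negative under each scaling and background alternative. Both stimuli together lowered 19 of the 22 mitosis genes and 27 of the 33 replication genes, against 21.8% of all features. Anln, an actin-binding protein of the cleavage furrow, had 573 and 602 with both, 1473 and 1445 with IFNγ, 1642 and 1434 with opsonised cells, and 2267 and 2181 in unstimulated cells. Each stimulus lowered it about as far, and the combination lay 3.79-fold below unstimulated cells (-0.78 ± 0.16, limma adjusted p = 0.0063). Prc1, which bundles microtubules of the central spindle, had 1720 and 1985 with both, 3590 and 3962 with IFNγ, 4906 and 4494 with opsonised cells, and 5768 and 5693 in unstimulated cells (-0.74 ± 0.15). The histone gene H2ac12 had 3140 and 3578 with both, 9541 and 9193 with IFNγ, 8166 and 7340 with opsonised cells, and 10905 and 11511 in unstimulated cells (-0.95 ± 0.14, limma adjusted p = 0.00023). No array with both stimuli overlapped another group in these 3 genes. H2ac15, H2ac24 and H2ac20 were the other called histones of the list, and since histone genes are nearly identical copies, their probes may read several of them. Uhrf1, Dnmt1, Ung and H2ac20 each lost their call in at least 4 settings, the fit without unstimulated replicate 2 included for each. Prc1 lost its call without IFNγ replicate 2. Plk1 (-0.70 ± 0.17) lost it in 7 of the 8 fits with 1 array left out, all but that without opsonised-cell replicate 1, and Cdc20 (-0.67 ± 0.17) in 5, those without replicate 1 of both stimuli, either IFNγ array, opsonised-cell replicate 2 or unstimulated replicate 1. The count of 30 was 12 without IFNγ replicate 1, 11 without IFNγ replicate 2, 19 without opsonised-cell replicate 2, 14 without unstimulated replicate 1 and 11 without unstimulated replicate 2.

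The promoters of Plk1 and Cdc20 are shown as those of division genes that hold the cell cycle element TTTGAA near their start. Both are RefSeq's, build GRCm38.p6, with the element in capitals: Plk1 at chr7:122159185-122159484, plus strand, with the element at position 30 after the start, and Cdc20 at chr4:118437294-118437593, minus strand, at -18.
Plk1: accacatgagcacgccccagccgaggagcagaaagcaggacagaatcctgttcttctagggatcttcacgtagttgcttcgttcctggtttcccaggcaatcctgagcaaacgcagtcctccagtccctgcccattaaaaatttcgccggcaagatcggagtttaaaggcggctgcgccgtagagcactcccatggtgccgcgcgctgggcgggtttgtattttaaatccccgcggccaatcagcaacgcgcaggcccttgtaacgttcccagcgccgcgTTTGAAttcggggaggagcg
Cdc20: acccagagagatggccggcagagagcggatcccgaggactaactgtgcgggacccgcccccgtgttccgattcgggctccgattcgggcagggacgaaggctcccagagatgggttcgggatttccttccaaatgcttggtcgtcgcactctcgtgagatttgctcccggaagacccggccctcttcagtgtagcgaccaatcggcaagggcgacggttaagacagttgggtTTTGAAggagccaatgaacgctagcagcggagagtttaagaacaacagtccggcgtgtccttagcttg
TTTGAA, searched on both strands, was in 15 of the 25 deeper-fall promoters in the table (60%) and in 983 of 6716 promoters of tested genes (14.6%). In the other classes its share lay between 8.7% and 17.6%. The element was chosen after the deeper falls were seen to hold division genes, so its share carries no test.

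**Figure D4:**
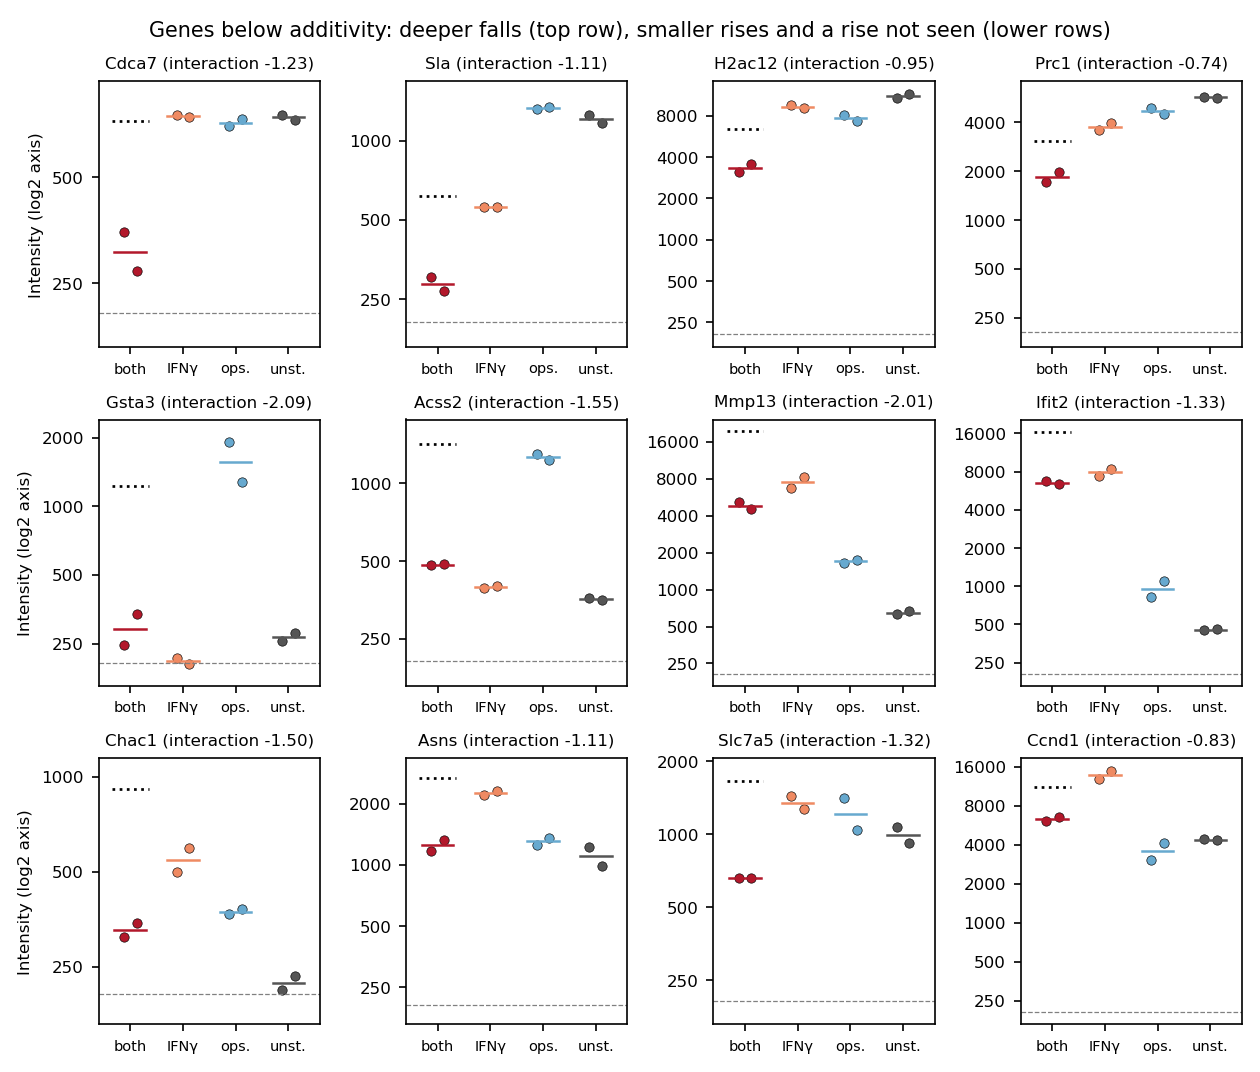
Intensity on a log2 axis per array (points) and group mean (bar) for 12 genes below additivity, with both stimuli on the left and unstimulated on the right, the additive expectation as a dotted bar and the background floor as a dashed line. In the top row the combination is the lowest group, and in the lower rows it lies below the dotted bar but, except for Slc7a5, not below unstimulated cells.

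Smaller rises were the largest class, with 68 features. limma called 55 higher with opsonised cells alone (6.36% of all features) and 47 higher with IFNγ alone (10%), 34 of them with each. With both stimuli 49 were still called higher than in unstimulated cells (15.4% of all features). The class takes only features whose summed and combined changes are both rises, so its definition largely fixes these shares. In 44 the combination was called below the higher of the single stimuli: 24 where opsonised cells gave the higher level (17.3% of all features were lower with both than with opsonised cells) and 20 where IFNγ did (7.97% were lower with both than with IFNγ). In 21 it was not called different and in 3 it was above. An interaction called below the sum also favours levels under the higher single stimulus. The class was 36 without IFNγ replicate 1, 34 without IFNγ replicate 2, 43 without opsonised-cell replicate 2, 38 without unstimulated replicate 2 and 44 after mode subtraction.

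In the first of these patterns the combination lay below the raised level that opsonised cells gave. Gsta3, a glutathione transferase, had 247 and 338 with both stimuli, 216 and 204 with IFNγ, 1920 and 1279 with opsonised cells, and 258 and 277 in unstimulated cells. It was high only with opsonised cells alone, and the combination overlapped the unstimulated arrays. The interaction was -2.09 ± 0.23 (limma adjusted p = 4.9e-06), the lowest of all features. Acss2, which makes acetyl-CoA from acetate, had 483 and 487 with both, 394 and 401 with IFNγ, 1296 and 1235 with opsonised cells, and 360 and 352 in unstimulated cells (-1.55 ± 0.16, limma adjusted p = 4e-06). Its level with both was 2.61-fold below opsonised cells alone. The cystine transporter gene Slc7a11 had 971 and 884 with both, 186 and 176 with IFNγ, 2137 and 2200 with opsonised cells, and 226 and 204 in unstimulated cells (-0.98 ± 0.17), and Dnmt3l 899 and 909 with both, 215 and 198 with IFNγ, 2894 and 2716 with opsonised cells, and 265 and 272 in unstimulated cells (-1.26 ± 0.16). In both genes the combination lay between the single stimuli and well above unstimulated cells. Their values with IFNγ and in unstimulated cells lay near background, and after mode subtraction both calls were lost (limma adjusted p = 0.92 and 0.772). Of 21 NRF2, glutathione and thioredoxin genes 3 were below additivity (1.4% of all features), namely Gsta3, Slc7a11 and Gss, the last also lost after mode subtraction. Hmox1 was above (1.2%). The median was -0.02, so the list did not move as 1 group.

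In the second pattern the combination lay below the raised level that IFNγ gave. Mmp13, a collagenase, had 5153 and 4552 with both, 6707 and 8330 with IFNγ, 1661 and 1732 with opsonised cells, and 631 and 669 in unstimulated cells. Opsonised cells raised it 2.61-fold alone and lowered it 1.54-fold in the presence of IFNγ, with no overlap between groups (interaction -2.01 ± 0.16, limma adjusted p = 5.6e-08). The additive expectation was 19500, over 50% of the highest intensity, and 2 dimmer probes of the gene gave -0.55 and -0.08 without a call. Ifit2, an antiviral gene, had 6722 and 6401 with both, 7414 and 8434 with IFNγ, 830 and 1090 with opsonised cells, and 456 and 457 in unstimulated cells (-1.33 ± 0.17, limma adjusted p = 4.8e-05). Ifit2 lies outside this pattern, since its combination was not called different from IFNγ alone. That of Ifit3 (-1.30 ± 0.18) was 1.39-fold below IFNγ alone. Further Ifit3 probes gave -0.55 and -0.58 without a call. Of 21 tested Ifit, Oas and Isg15 genes 3 were called below (Ifit2, Ifit3 and Oas1g) and 1 above (Oasl1), against 1.4% and 1.2% of all features. A negative interaction was found in 17 (4437 of 8855 features), and the median was -0.21. Igtp, a GTPase of vacuole defence, had 10475 and 9758 with both, 12682 and 12622 with IFNγ, 637 and 723 with opsonised cells, and 452 and 496 in unstimulated cells (-0.84 ± 0.15, limma adjusted p = 0.0021). Ccnd1, cyclin D1, had 6119 and 6530 with both, 12780 and 14910 with IFNγ, 3048 and 4135 with opsonised cells, and 4427 and 4318 in unstimulated cells (-0.83 ± 0.17). It was 2.18-fold lower with both than with IFNγ alone, and its call was lost without IFNγ replicate 2.

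Bright genes raised by each stimulus form a further pattern. For 7 of the 68 smaller rises the additive expectation exceeded 50% of the highest intensity (Cd274, Cxcl10, Gbp2, Igtp, Mmp13, Rassf4 and Sod2), and for 2 it exceeded the highest intensity itself. Gbp2, a guanylate-binding protein, had 29099 and 28881 with both, 27396 and 27396 with IFNγ, 1535 and 1664 with opsonised cells, and 670 and 667 in unstimulated cells (-1.18 ± 0.14). The combination was not called different from IFNγ alone (log2 difference 0.08, limma adjusted p = 0.65), the call was lost with the gene's most variable probe, and 2 dimmer probes gave -0.49 and 0.19. Cd274, PD-L1, had 19464 and 19464 with both, 17812 and 19464 with IFNγ, 2850 and 2453 with opsonised cells, and 1323 and 1279 in unstimulated cells (-0.96 ± 0.14). Slc2a1, the glucose transporter GLUT1, was raised by each stimulus inside the range, with 3547 and 3016 with both, 2378 and 2271 with IFNγ, 3073 and 2880 with opsonised cells, and 1055 and 974 in unstimulated cells (-1.06 ± 0.16, limma adjusted p = 0.00023). The arrays with both overlapped those with opsonised cells.

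Genes of the amino acid stress response, many of them targets of the factor ATF4, held the most calls of any list in either direction. Of 21 tested genes of amino acid and endoplasmic reticulum stress 8 were below additivity and 0 above (1.4% and 1.2% of all features): Chac1, Slc7a5, Asns, Mthfd2, Atf4, Atf3, Cebpb and Ddit3. The last 4 are named as the list's remaining calls, and their calls were not recomputed one by one. The list's median was -0.40, and it lay between -0.65 and -0.39 under the scaling and background alternatives. Chac1, which degrades glutathione, had 309 and 343 with both stimuli, 498 and 594 with IFNγ, 366 and 382 with opsonised cells, and 210 and 233 in unstimulated cells. Opsonised cells raised it 1.69-fold alone and lowered it 1.67-fold in the presence of IFNγ (interaction -1.50 ± 0.17, limma adjusted p = 1.1e-05). Asns, asparagine synthetase, had 1177 and 1326 with both, 2219 and 2312 with IFNγ, 1259 and 1364 with opsonised cells, and 1229 and 991 in unstimulated cells. Here the combination stood at the level of opsonised cells and 1.81-fold below IFNγ (-1.11 ± 0.17, limma adjusted p = 0.00032), and a second probe gave -0.98. Mthfd2, a mitochondrial folate enzyme, was at -1.08 ± 0.18 (limma adjusted p = 0.00085).

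Chac1 is shown with its promoter for the amino acid stress motif TGATGNAA. The sequence is RefSeq's, build GRCm38.p6, chr2:119350992-119351291, plus strand, with the match, which lies on the opposite strand at position -193, in capitals.
Chac1: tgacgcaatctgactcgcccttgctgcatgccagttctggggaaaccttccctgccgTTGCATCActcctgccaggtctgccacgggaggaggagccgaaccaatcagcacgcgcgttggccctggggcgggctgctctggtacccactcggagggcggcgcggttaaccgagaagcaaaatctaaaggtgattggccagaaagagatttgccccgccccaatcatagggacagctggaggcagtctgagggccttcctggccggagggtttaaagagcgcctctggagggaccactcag
TGATGNAA, searched on both strands, was in 8 of 56 smaller-rise promoters (14.3%: Asns, Atf3, Chac1, Gadd45g, Gbp3, Nupr1, Slc1a4 and Slc7a11) and in 214 of 6716 promoters of tested genes (3.19%). The motif was also chosen with the class known. The antioxidant motif TGACNNNGC was in 25% of the class and 16.6% of the 6716.

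Rises not seen were 26 in number. The combination was called below the higher single stimulus in all 26, which the definition of the class largely fixes. With both stimuli 11 were called lower than in unstimulated cells (21.8% of all features were). Slc7a5, a large neutral amino acid transporter, had 663 and 660 with both, 1435 and 1271 with IFNγ, 1419 and 1045 with opsonised cells, and 1076 and 919 in unstimulated cells. The combination lay below every other array, 1.5-fold below unstimulated cells, where IFNγ alone had raised the gene 1.36-fold (interaction -1.32 ± 0.19, limma adjusted p = 0.00018). Prmt3, a methyltransferase of a ribosomal protein, had 732 and 755 with both, 942 and 896 with IFNγ, 1977 and 1824 with opsonised cells, and 1317 and 1141 in unstimulated cells (-0.94 ± 0.16, limma adjusted p = 0.0013). It rose with opsonised cells alone and fell with both. Its arrays with IFNγ alone also lay below the unstimulated ones, and the combination was not called below IFNγ alone. Of 14 ribosome biogenesis genes 13 had a negative interaction and 1 was called (Nop56, lost without IFNγ replicate 1 or opsonised-cell replicate 2), and of 15 aminoacyl-tRNA synthetases 13 were negative and 0 called by limma (5 at an unadjusted p under 0.05). Their medians were both -0.25. Among all features 4437 of 8855 were negative and 1.4% were called below. The count of 26 was 9 without either IFNγ array, 15 without unstimulated replicate 1, 6 without unstimulated replicate 2, 11 after mode subtraction and 53 with housekeeping centring.

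In a small number of genes the direction of a stimulus turned with the other. limma called the change with opsonised cells in opposite directions with and without IFNγ in 13 features (0.147%) and the change with IFNγ in opposite directions with and without opsonised cells in 12 (0.136%), each with a called interaction. Opsonised cells lowered Mmp13, Chac1, Ifit3, Mthfd2, Nupr1, Igtp and Fam102a in the presence of IFNγ and raised them without it. They raised Klhl6, Mertk, Tbc1d2, Stat4 and Pacs1 with IFNγ and lowered them without. IFNγ lowered Slc7a5, Slc6a9, Diaph1, Arl14ep, Slc1a4 and Nrp1 in the presence of opsonised cells and raised them without, and did the reverse to Ednrb, Ccl4, Snx8, Stat4 and Fbxo34. Stat4 was the 1 gene in both sets.

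Several lists held no call, which in lists of this size differs little from the 2.6% called over all features. limma called 0 of 18 MHC class I and immunoproteasome genes (4 at an unadjusted p under 0.05), 0 of 10 IRF and BATF factors (3), 0 of 13 Fcγ receptor and ITAM genes (4), 0 of 16 sterol genes (5), 0 of 44 oxidative phosphorylation genes (5), 0 of 31 lysosome genes (1) and 0 of 26 proteasome genes (6). For scale, departures were planted in a simulated set of 8855 features, with independent normal noise of the fitted spread. Of 68 departures of 0.5 on the log2 scale 30.9% were recovered, and of 66 departures of 1, 98.5%. Small departures can thus go uncalled. Medians of these lists lay between -0.19 and 0.13. Over all features 15.1% had an unadjusted p under 0.05. The interaction was negative in 13 of the 16 sterol genes and 14 of the 18 MHC class I genes (4437 of 8855 features). No call therefore does not mean that a list was additive. Of the called genes 68 had a further tested probe, 100 probes in all, of which 87 had the same sign, 30 of them called, and 13 the opposite sign with 0 called.

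**Figure D5:**
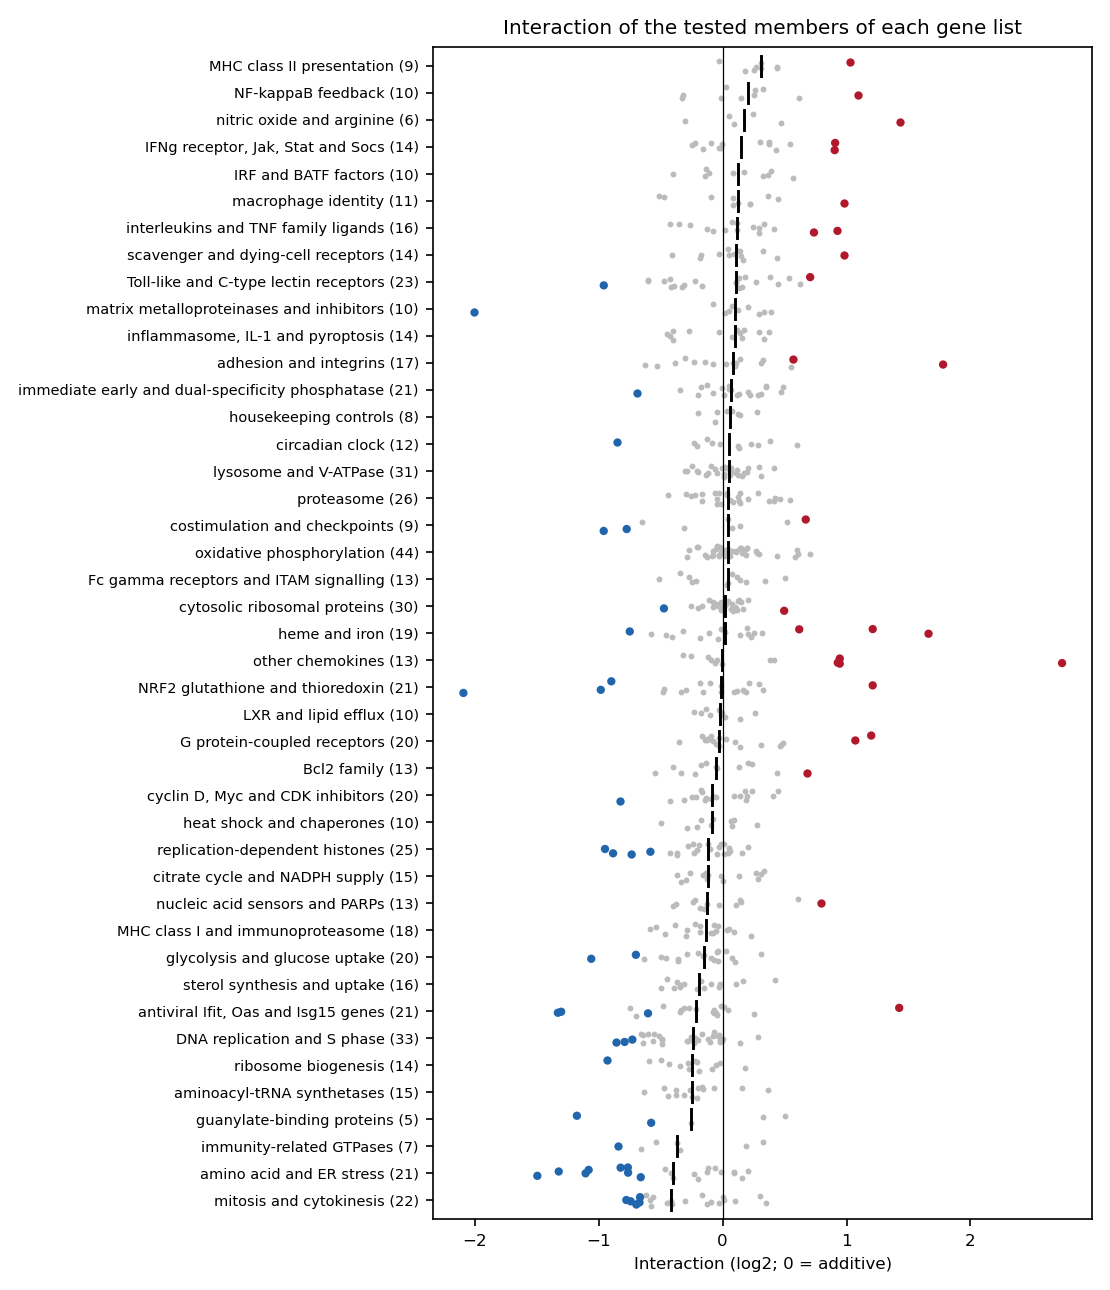
Interaction on the log2 scale for each tested member (points) of the gene lists with at least 5 tested members (number in brackets), ordered by median (black bar). Red and blue points are called above and below additivity, grey points are not called. Amino acid stress and mitosis stand lowest (medians -0.40 and -0.41) and MHC class II presentation highest (0.31).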

How the data were processed

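RNA was hybridised to 8 MouseRef-8 arrays (Illumina). The authors deposited linear intensity values for 25697 probes. GenomeStudio is named in the submitters' processing notes, and neither a version nor a normalization was given in the sources read here. Sorted, the 8 columns differed by at most 0.961%, as after quantile normalization, and background had not been subtracted (mode 174.4). A second table was not used, since its 16 per-sample columns match no label. Groups and replicate numbers come from the sample titles.

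Values were log2 transformed without a pseudocount. Probes above a floor of 204.9 (the mode plus 1.64 SD of the values below it) on both arrays of at least 1 group were kept (11630, 45.3%), and each gene was read by its brightest probe. The array annotation gave 1 symbol for 23978 probes and none for 1719. limma 3.58.1 in R 4.3.3 fitted 4 group means (lmFit, eBayes with intensity trend, 4 residual degrees of freedom) with Benjamini-Hochberg adjustment over all 8855 features. ± values are standard errors of a fitted log2 value. Replicate numbers showed no sign of pairing the samples: deviations of equal numbers correlated at -0.0433 to 0.0439. The labels do not say whether equal numbers share a culture or mouse. The genes named were drawn from the largest called interactions per class (up to 10 for smaller falls and for larger rises beyond both stimuli, up to 8 otherwise). They were also drawn from called genes whose direction turned, and from up to 4 leading members of each of 44 lists. A last source was 10 genes of the IFNγ, Fcγ receptor and heme responses. Not all genes from these sources are described. Of the 10, Tnf, Irf1, Fcgr1, Fcgr4 and Ifngr1 had no called interaction in the main fit, and Il10 was not tested. Other called list members are named as such. Members and lists were chosen with earlier results of these data known. The fit was tested on simulated data. The precision is limited by the number of arrays. Promoters come from RefSeq (GRCm38.p6).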

Additional observations from a re-analysis of the deposited data

Results flagged for a closer look

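In the genes below the effect of 1 stimulus was called in opposite directions with and without the other, and the interaction tested that difference. For opsonised cells with against without IFNγ the interaction was -2.01 for Mmp13, -1.50 for Chac1, -1.30 for Ifit3, -1.08 for Mthfd2, -0.99 for Nupr1, -0.84 for Igtp and -0.79 for Fam102a. It was 1.48 for Klhl6, 0.98 for Mertk, 0.91 for Tbc1d2, 0.90 for Stat4 and 0.84 for Pacs1. For IFNγ with against without opsonised cells it was -1.32 for Slc7a5, -0.92 for Slc6a9, -0.76 for Diaph1, -0.71 for Arl14ep, -0.65 for Slc1a4 and -0.60 for Nrp1, and 1.20 for Ednrb, 0.95 for Ccl4, 0.94 for Snx8, 0.90 for Stat4 and 0.68 for Fbxo34. Slc6a9 and Slc1a4 were not above background with both stimuli or in unstimulated cells. The calls of Arl14ep, Diaph1, Fbxo34, Nrp1, Slc1a4 and Pacs1 were each lost in at least 1 fit with 1 array left out.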

How the results depend on the processing

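The number of arrays, 2 a group, limits the precision, and log2 changes near background are understated. The calls were chosen on these same arrays, so the shared sign of their single-array interactions, given next, adds no support. Of 230 calls limma made, 230 had all 16 single-array interactions of 1 sign, and 51 of 116 called genes recomputed singly kept call and direction in every setting, with 115 keeping direction. The exception was Dusp4, a called rise not seen at -0.69, which became 0.23 after mode subtraction (not called), as the uncalled Cxcl9 became -0.1583. Cyclic loess gave 220 calls, normexp 225, no filter 187, a floor on all arrays 203, no trend 233 and the most variable probe 225. Housekeeping centring gave 274 (89 above, 185 below), with 15 smaller falls, 53 rises not seen and 63 below both single stimuli. Mode subtraction gave 136 (49 above, 87 below): 20 larger rises, 9 smaller falls, 20 falls not seen, 44 smaller rises and 11 rises not seen, with 27 above both single stimuli. No filter gave 15 smaller falls. Requiring a 2-fold departure left 37 (19 above, 18 below): 13 larger rises, 1 smaller fall, 5 falls not seen, 2 deeper falls, 15 smaller rises and 1 rise not seen, with 16 above and 3 below both single stimuli. With a replicate block 229 were called, 220 of them shared with the 230, and the numbers showed no sign of pairing the samples.

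Leaving out 1 array gave 102 to 249 calls (47 to 114 above, 54 to 135 below), 25 to 49 larger rises, 7 to 25 smaller falls, 13 to 43 falls not seen, 11 to 31 deeper falls, 34 to 77 smaller rises, 6 to 27 rises not seen, 33 to 77 above both single stimuli and 13 to 39 below. Fewer arrays alone widen the errors in these fits. The cause of the other changes was not tested.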
